A study of Homo sapiens with 24 samples.

Results

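The E2 enzymes whose gene symbols begin with UBE2 were followed through 6 treatments of HepG2, a human hepatoma cell line. The members were all rows of the count matrix with such a symbol, which gave 35 genes of 18915. Of these, 30 passed the filter on low counts, of 12685 genes that passed in all. The cells were given vehicle (DMSO), 50 nM ISRIB, 20 uM nelfinavir, 50 nM bortezomib, 50 nM bortezomib with 20 uM nelfinavir, or 50 nM bortezomib with 50 nM ISRIB. Each group had 4 biological replicates and was treated for 10 h, so that each combination was read against bortezomib alone and each single agent against DMSO. Bortezomib blocks the proteasome, nelfinavir is an HIV protease inhibitor that the study used to raise the activity of the eIF2α–ATF4 stress pathway, and ISRIB makes cells blind to the phosphorylation of eIF2α. All groups come from this single tumour line, at 1 dose of each agent and 1 time point.

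Ubiquitin is handed along a chain of enzymes before it reaches a protein. An E1 enzyme activates it, an E2 enzyme carries it as a thioester, and an E3 ligase brings the loaded E2 to the substrate. The E2 often decides which kind of ubiquitin chain is made, and so whether the substrate goes to the proteasome, to a repair complex or to a signalling complex. Several E2s do not carry ubiquitin but a related modifier, such as NEDD8 or ISG15. Hepatocytes make and export large amounts of protein, and E2s of the endoplasmic reticulum (ER) take part in the removal of misfolded secretory proteins there.

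The libraries were 3′ end tag libraries, so that reads come from the end of a transcript, and held 5154533 to 6943164 counts each. Levels are given as CPM, counts relative to the library total, scaled with TMM factors, which assume that most genes do not change. Mitochondrially encoded genes took 20 to 23.1% of the counts in the DMSO libraries and 32.8 to 35.5% in the bortezomib libraries. With bortezomib they took 24.9 to 29.6% where nelfinavir was added, below every library of bortezomib alone, and 32.6 to 40.2% where ISRIB was added. All 10 liver cell markers were present in every library, but their sum moved with the groups, from 15900 to 17800 CPM in DMSO to 11900 to 12500 CPM with bortezomib and 8530 to 10300 CPM with bortezomib and nelfinavir. With bortezomib 6 of the 10 fell, most of all TTR (-1.49), AFP (-1.26) and APOH (-1.26, log2), and the part of this and of the mitochondrial share in the UBE2 results was not tested. COL1A1, COL3A1 and DES did not exceed 1.11 CPM in any library, but MBP was at 16.4 to 35.5 CPM and CD68 at 0.751 to 5.21 CPM. Of 10 markers of other cell types 6 had a row, and their sum was 48.8 to 62.6 CPM in DMSO and 105 to 139 CPM with bortezomib, mostly ACTA2 (means of 32.1 and 89 CPM). The libraries of bortezomib with nelfinavir fell apart into replicates 1 and 2 and replicates 3 and 4. Over 7891 genes with a mean above 10 CPM, the root mean square log2 difference was 0.326 and 0.349 within these pairs and 0.451 to 0.534 between them. Replicate 3 of bortezomib with ISRIB also stood apart from the other 3 libraries of its group, at 0.451 to 0.524 against 0.302 to 0.366 among the others. Results that rest on these libraries are given with and without them.

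The 5 UBE2 genes that did not pass the filter were UBE2S with 71 counts in all libraries together, UBE2V1 with 66, UBE2Q2L with 13, UBE2NL with 4 and the antisense transcript UBE2E1-AS1 with 1. The last 500 bases of UBE2S are shared with a lincRNA on the same strand, and those of UBE2V1 with a read-through transcript, PEDS1-UBE2V1, so their counts cannot be read as levels. UBE2S, which lengthens chains for the anaphase-promoting complex (APC/C), had 3 counts in the DMSO group and 16 in the bortezomib group. UBE2E2 passed the filter with 88 counts, too few to compare groups.

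Three-prime ends also overlap on opposite strands, and the strand setting used in counting is not given in the sources used here. Over the joined exons of all annotated transcripts, UBE2A shares its last 500 bases with NKRF, UBE2E1 with NKIRAS1 and UBE2N with NUDT4. Reads from these bases could not be told apart if strand was ignored. These are the outermost annotated ends, and which end the reads came from was not tested. Near-identical copies exist for the ends of UBE2D3 (UBE2D3P1, 97.2% over 421 bases), UBE2E3 (UBE2E4P, 98.1% over 471 bases) and UBE2M (UBE2MP1, 97.7% over 470 bases). Shorter ones exist for UBE2F (DNAAF9, 97.6% over 164 bases), UBE2L3 (ENSG00000279392, 98.1% over 158 bases), UBE2W (UBE2WP1, 97.6% over 124 bases) and UBE2A (up to 103 bases). Of the copies named, DNAAF9 alone had a row in the count matrix. UBE2F also shares 300 identical bases with UBE2F-SCLY, and UBE2W 236 with ENSG00000258677. Both of these genes overlap the member on the same strand and are no separate copies. The counts of all these UBE2 genes are less certain. Values of these genes below carry that limit.

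As a whole, the UBE2 genes made up a larger part of the TMM-scaled message under bortezomib. Their summed level was 1890 ± 26.5 CPM (SD, n = 4) in DMSO, 1995 ± 19.6 with ISRIB and 1958 ± 44.1 with nelfinavir. It was 2520 ± 67.3 with bortezomib, 2804 ± 76.9 with bortezomib and nelfinavir, and 2366 ± 23.7 with bortezomib and ISRIB. No library with bortezomib overlapped with any library without it. The direction depends on the scaling: as a share of the counts as deposited, UBE2 genes took 0.224 to 0.231% in DMSO and 0.208 to 0.221% in bortezomib. That share was 0.229 to 0.237% with bortezomib and nelfinavir and 0.184 to 0.2% with bortezomib and ISRIB. The log2 ratio of the group means was 0.42 with TMM factors and -0.08 with library totals alone, a scaling under which the median of all genes moved by -0.50. In bulk RNA, a loss of other messages and a gain of these cannot be told apart, nor can fewer cells and less RNA per cell.

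**Figure D1:**
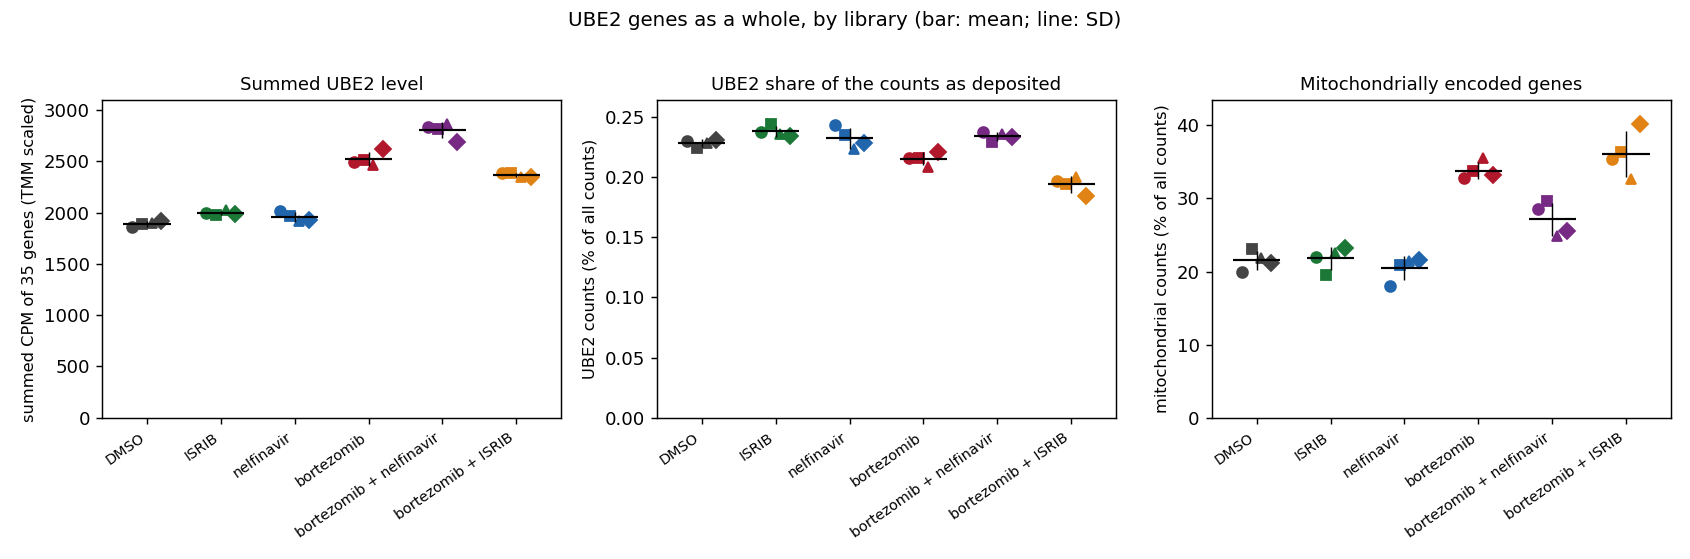
Summed level of the 35 UBE2 genes in TMM-scaled CPM (left), their share of the counts as deposited in percent (middle) and the share of mitochondrially encoded genes in percent (right), for the 4 libraries of each group (symbols mark replicates 1 to 4; bar, mean; line, SD). The scaled sum lies at 1856 to 2022 CPM in the groups without bortezomib and at 2344 to 2865 CPM in those with it. The middle panel shows the libraries of bortezomib alone below those of DMSO, but not those of bortezomib with nelfinavir.

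Bortezomib alone was compared with DMSO to see which E2 genes moved when the proteasome was blocked. In the quasi-likelihood test of edgeR, with p-values adjusted over all genes by Benjamini-Hochberg, 22 of the 30 UBE2 genes differed at an adjusted p under 0.05, which is 73.3% beside 53.4% of all genes tested. Of the 22, 17 were higher (56.7% beside 27.6% of all genes) and 5 were lower (16.7% beside 25.8%). The median log2 fold change of the UBE2 genes was 0.52 and that of all genes 0.00. UBE2H, UBE2D1 and UBE2G1 rose more than 2-fold, and UBE2C, UBE2D4 and UBE2L6 fell more than 2-fold. The bortezomib and DMSO libraries did not overlap for 22 UBE2 genes, beside 50% of all genes. These 22 were the genes called other than UBE2F, and UBE2T. The shares of all genes include genes with few counts, which are harder to call, and were not matched for level. The part of level in these differences was not tested.

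**Figure D2:**
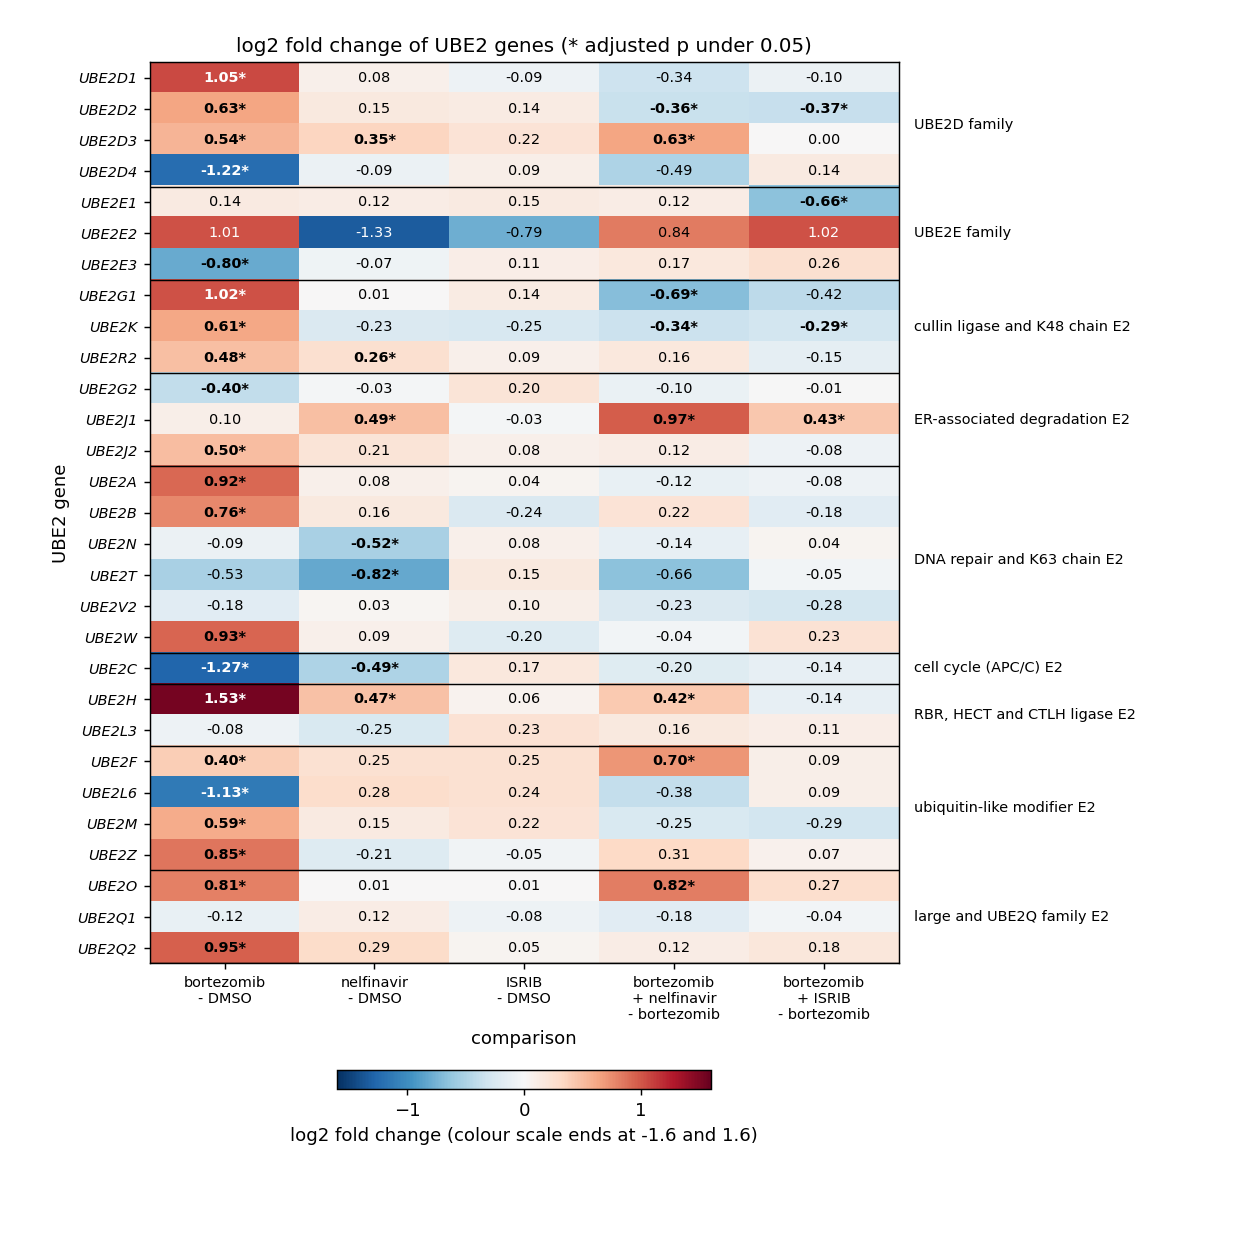
Log2 fold change of the UBE2 genes that passed the filter and are named here (rows, grouped by role) in 5 comparisons (columns), in colour and as a number; an asterisk marks an adjusted p under 0.05. Red fills most of the first column, where UBE2H at 1.53 and UBE2C at -1.27 mark the ends of the range, and the ISRIB column holds no asterisk.

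The UBE2D family, which works with a broad range of RING and HECT ligases, split. UBE2D2 (chr5:138906016-139008019, plus strand, GRCh37) was at 156, 164, 155 and 152 CPM in the DMSO libraries and at 233, 244, 235 and 255 CPM in the bortezomib libraries. All bortezomib libraries lay above all DMSO libraries, and the log2 fold change was 0.63 ± 0.08 (SE, adjusted p = 1.109e-07). UBE2D1 rose by 1.05 ± 0.19 and UBE2D3 by 0.54 ± 0.08 on the same scale. UBE2D4 (chr7:43966035-43995735, plus strand) went the other way, from 13.5, 14.3, 14.7 and 13.5 CPM in DMSO to 4.06, 6.59, 6.34 and 6.92 CPM with bortezomib. Its highest bortezomib library was thus below its lowest DMSO library, and it fell by 1.22 on the log2 scale (SE 0.27, adjusted p = 0.0003203). Over the coding sequence, the 4 genes are 77.1 to 86.6% identical, so the member that fell is a close relative of those that rose.

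The UBE2E family, whose members carry an extra stretch ahead of the catalytic core, had 1 member called, and it fell. UBE2E3 (chr2:181831975-181941312, plus strand) was at 41.7, 43.7, 50.2 and 50.9 CPM in DMSO and at 22.9, 28.7, 23.7 and 31.6 CPM with bortezomib. The groups did not overlap, and the log2 fold change was -0.80 ± 0.14 (adjusted p = 1.624e-05). UBE2E1 did not pass the test, at 0.14 with a 95% interval of -0.06 to 0.34.

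All 3 E2s grouped here by work with cullin ligases or on degradative chains were higher, beside 27.6% of all genes. With only 3 genes, no conclusion about the group was drawn. This group does not hold every E2 that serves degradation, and UBE2G2 and UBE2C, given below, were lower. UBE2G1, which serves cullin ligases that include the cereblon ligase, rose by 1.02 ± 0.15 on the log2 scale. UBE2K, which extends chains on its own, rose by 0.61 ± 0.10, and UBE2R2, a relative of the cell cycle E2 CDC34, by 0.48 ± 0.07. With library totals alone only UBE2G1 of the 3 remained called, and UBE2R2 was at -0.02.

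The E2s of ER-associated degradation did not move together. UBE2J1 and UBE2J2 sit in the ER membrane by a tail anchor, and UBE2G2 is a soluble E2 that works at the ER. UBE2J2 rose by 0.50 ± 0.10, and this value was -0.00 with library totals alone. UBE2G2 (chr21:46188495-46221741, minus strand) was at 75.4, 81.9, 80.2 and 77.1 CPM in DMSO and at 55.8, 62.4, 58.9 and 61.6 CPM with bortezomib. All 4 bortezomib libraries were lower than all 4 DMSO libraries, a change of -0.40 ± 0.11 on the log2 scale (adjusted p = 0.003696). UBE2J1 did not pass the test, at 0.10 with a 95% interval of -0.17 to 0.36.

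Of the E2s of DNA repair and signalling chains, 3 of 6 tested rose and none was called lower, beside 27.6% and 25.8% of all genes. With so few genes, no conclusion about the group was drawn. UBE2A and UBE2B, the human counterparts of yeast RAD6, rose by 0.92 ± 0.13 and 0.76 ± 0.13, and their coding sequences are 80.5% identical. NKRF, which overlaps the outermost annotated end of UBE2A, rose by 0.46 ± 0.19 at a mean of 15.4 CPM, against 70 CPM counted for UBE2A. UBE2W, which puts single ubiquitins on the N terminus of proteins, rose by 0.93 ± 0.29. UBE2N and its inactive partner UBE2V2, which together make signalling chains, did not pass the test, at -0.09 (95% interval -0.31 to 0.13) and -0.18 (-0.39 to 0.03). UBE2T, the E2 of the Fanconi anaemia pathway, was at -0.53 ± 0.23 with an adjusted p of 0.05849, just outside the threshold, although its libraries did not overlap.

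UBE2C, the E2 that starts chains for the APC/C in mitosis, showed the deepest fall of any UBE2 gene. UBE2C (chr20:44441215-44445596, plus strand) was at 63.1, 68.1, 68.7 and 74.2 CPM in DMSO and at 31.4, 25.4, 27.2 and 29.6 CPM with bortezomib. The groups were far apart, and the change was -1.27 ± 0.15 on the log2 scale (adjusted p = 7.903e-09). All 10 proliferation markers, which had no part in the choice of members, also fell, with a median of -0.70. Their summed level was 3400 to 3620 CPM in DMSO and 1730 to 1890 CPM with bortezomib. The part of cell cycle position in the fall of UBE2C was not tested.

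UBE2H, the E2 partner of the CTLH ligase complex, showed the steepest rise. UBE2H (chr7:129470572-129592800, minus strand) was at 33.8, 26.6, 34.7 and 34.1 CPM in DMSO and at 106, 84.9, 88.7 and 93.8 CPM with bortezomib. The lowest bortezomib library held more than 2 times the level of the highest DMSO library. The log2 fold change was 1.53 ± 0.11, a 2.89-fold rise (adjusted p = 2.105e-13). UBE2L3, which serves RBR and HECT ligases and stands in the same role group, did not pass the test, at -0.08 (95% interval -0.28 to 0.12).

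**Figure D3:**
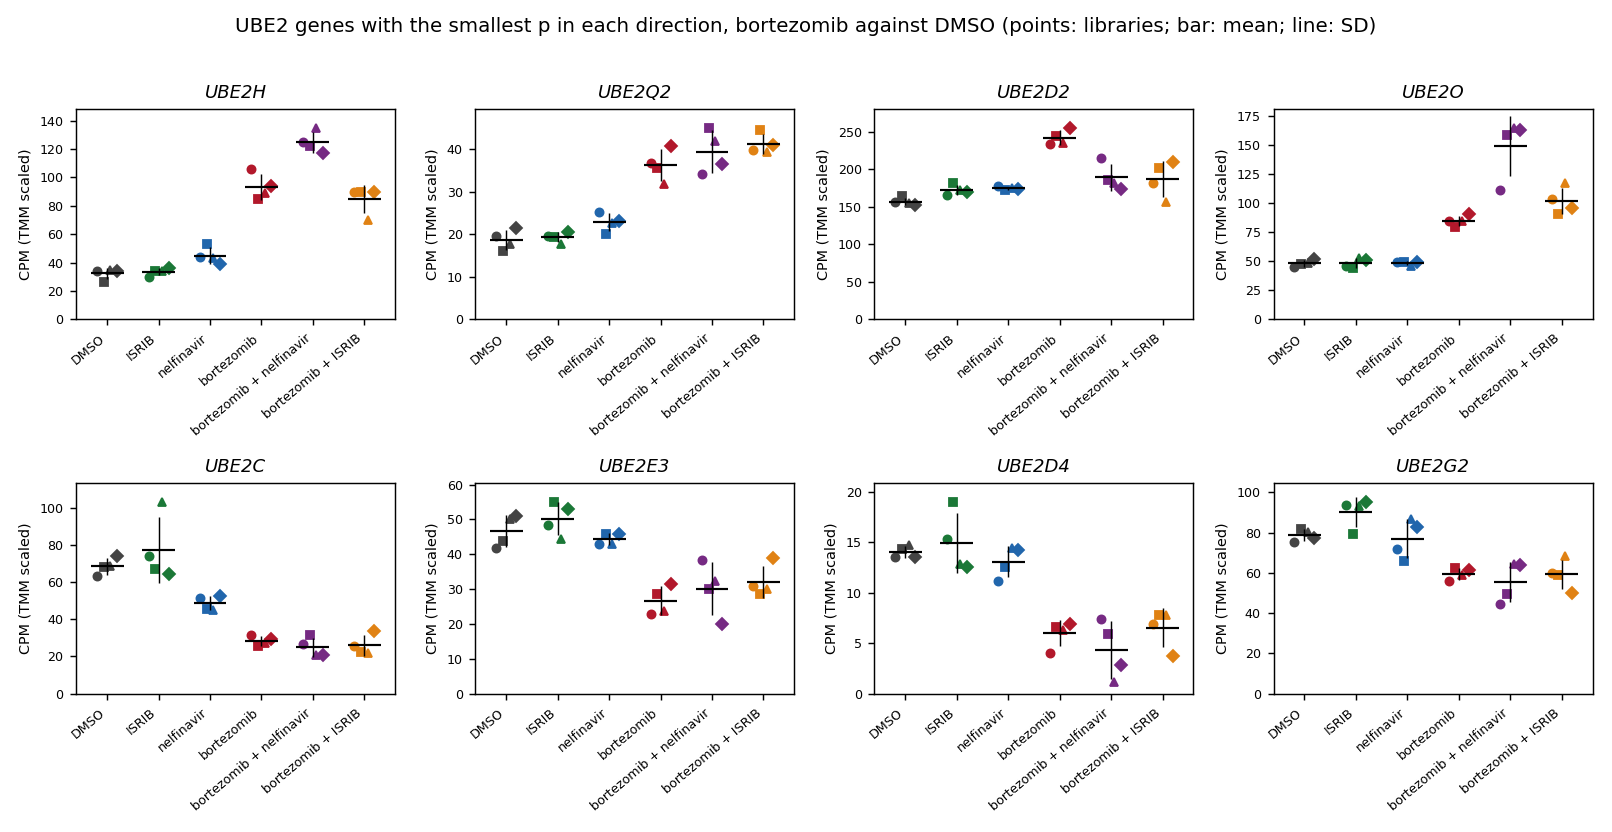
TMM-scaled CPM (linear axis from 0) of the 8 UBE2 genes with the smallest p in each direction for bortezomib against DMSO, in the 4 libraries of all 6 groups (symbols mark replicates 1 to 4; bar, mean; line, SD). UBE2H, UBE2Q2, UBE2D2 and UBE2O are higher, and UBE2C, UBE2E3, UBE2D4 and UBE2G2 lower, in the bortezomib libraries than in the DMSO libraries, with no overlap.

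Of the 5 E2s for ubiquitin-like modifiers, 4 rose and 1 fell, beside 27.6% and 25.8% of all genes, again in a small group. UBE2M, an E2 of NEDD8, rose by 0.59 ± 0.14. UBE2Z, which is loaded by the E1 enzyme UBA6, rose by 0.85 ± 0.15. UBE2F, the other E2 of NEDD8, was at 35.6, 29, 31.9 and 31.5 CPM in DMSO and at 45.6, 45.6, 33 and 44.5 CPM with bortezomib. Its groups overlapped in replicate 3, and the rise of 0.40 ± 0.13 (adjusted p = 0.00933) was the weakest of those called. It lost the call without DMSO replicate 2 (adjusted p = 0.07588) and without bortezomib replicate 1, 2 or 4 (0.07388, 0.08257 and 0.06562). UBE2L6, the E2 of the interferon-induced modifier ISG15, fell by 1.13 on the log2 scale (SE 0.34, adjusted p = 0.005006) from a mean of 9.42 ± 1.72 to 4.26 ± 1.91 CPM (SD, n = 4).

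In the group of large and less studied E2s, UBE2O and UBE2Q2 rose. UBE2O, a large enzyme that joins E2 and E3 activity and takes part in the removal of unassembled ribosomal proteins, lies at chr17:74385537-74449234 on the minus strand. It was at 45.1, 47.4, 48.8 and 52 CPM in DMSO and at 84.9, 79.1, 84.3 and 90.3 CPM with bortezomib. The log2 fold change was 0.81 ± 0.11 (adjusted p = 1.228e-07), with no overlap. UBE2Q2 (chr15:76135648-76193419, plus strand) was at 19.5, 16.1, 17.6 and 21.4 CPM in DMSO and at 36.8, 35.5, 31.9 and 40.8 CPM with bortezomib. It rose by 0.95 ± 0.13 (adjusted p = 8.645e-08), again with no overlap. UBE2Q1, with a coding sequence 75.0% identical to that of UBE2Q2, did not pass the test at -0.12 (95% interval -0.34 to 0.11).

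These counts depend on how the libraries were scaled. With library totals alone, 7 UBE2 genes were higher and 12 lower, where 11.7% of all genes were higher and 49.4% lower. UBE2H, UBE2G1, UBE2D1, UBE2Q2, UBE2A, UBE2Z and UBE2O stayed higher and all 5 genes called lower stayed lower. Leaving out bortezomib replicate 4 added UBE2Q1, UBE2T and UBE2V2 to the genes called lower, which made 8. The share of all genes called lower without that library is not given here.

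**Figure D4:**
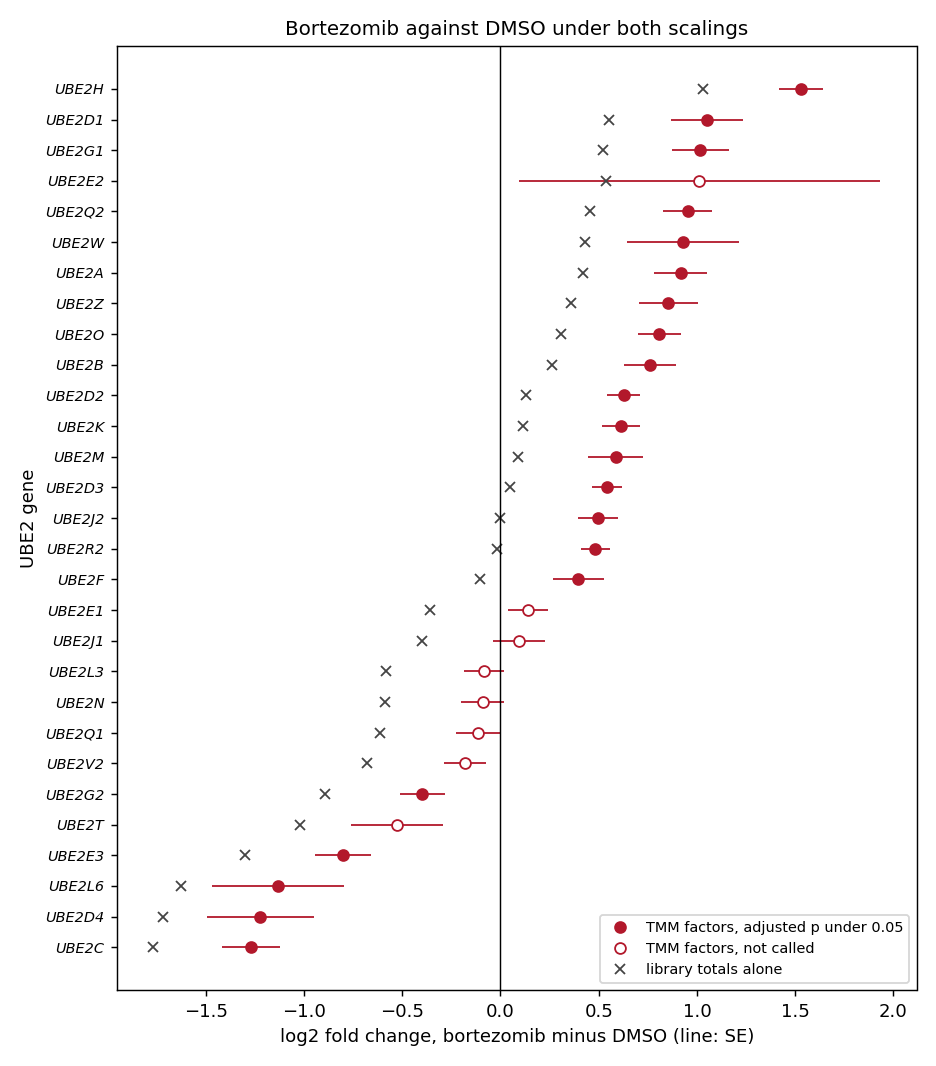
Log2 fold change of the same UBE2 genes as in the heat map for bortezomib against DMSO, with TMM factors (circles, filled where the adjusted p is under 0.05; line, SE) and with library totals alone (crosses). The crosses lie about 0.50 to the left of the circles, so that UBE2R2, UBE2J2 and UBE2F, among the genes called, pass to the other side of 0 while UBE2H stays at 1.03.

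Nelfinavir alone was compared with DMSO at the same dose as in the combination. Of the 30 UBE2 genes, 7 differed, which is 23.3% beside 19.2% of all genes tested, a share near the background. UBE2D3, UBE2H, UBE2J1 and UBE2R2 were higher (13.3% beside 10.4% of all genes), and UBE2N, UBE2T and UBE2C were lower (10% beside 8.84%). None changed 2-fold. For 9 UBE2 genes the libraries of nelfinavir and DMSO did not overlap, beside 29.6% of all genes. The comparison shares its 4 DMSO libraries with that of bortezomib.

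Among the genes that rose, UBE2J1 (chr6:90036344-90062441, minus strand) is the ER-membrane E2 that works with the ligase SYVN1. It was at 27.3, 36.3, 33.4 and 33.8 CPM in DMSO and at 51.5, 46.1, 39.8 and 45.8 CPM with nelfinavir. The groups did not overlap, and the log2 fold change was 0.49 ± 0.13 (adjusted p = 0.005715). UBE2D3 (chr4:103715540-103790053, minus strand) was at 204, 212, 217 and 219 CPM in DMSO and at 274, 252, 288 and 269 CPM with nelfinavir. It rose by 0.35 ± 0.08 (adjusted p = 0.001038), with every nelfinavir library above every DMSO library. UBE2H was at 44.1, 53.2, 43 and 39.2 CPM with nelfinavir, all above DMSO, and rose by 0.47 ± 0.11 (adjusted p = 0.002086). UBE2R2 rose by 0.26 ± 0.07 and lost the call when no genes were filtered out.

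Among the genes that fell, UBE2N (chr12:93799449-93835723, minus strand) makes signalling chains. It was at 91.6, 98.8, 94.2 and 101 CPM in DMSO and at 64.1, 71.2, 69.6 and 65.2 CPM with nelfinavir. The ranges were well apart, and the log2 fold change was -0.52 ± 0.11 (adjusted p = 0.0006622). NUDT4, on the opposite strand at its outermost annotated end, fell by 0.41 as well (SE 0.15, adjusted p = 0.04785), from a mean of 27.7 to 20.8 CPM. How reads were shared between these genes was not tested. UBE2T (chr1:202300672-202311112, minus strand) was at 31.6, 40.1, 37.5 and 38.6 CPM in DMSO and at 14.3, 22.5, 18.3 and 28.7 CPM with nelfinavir. It fell by 0.82 on the log2 scale (SE 0.23, adjusted p = 0.009571) but spread widely, and without nelfinavir replicate 1 the adjusted p was 0.05538. UBE2C was at 51.6, 45.7, 44.8 and 52.6 CPM with nelfinavir, below every DMSO library, and fell by 0.49 (SE 0.14, adjusted p = 0.009587). Of the proliferation markers, 7 of 10 fell, and their summed level was 2500 to 3060 CPM with nelfinavir.

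ISRIB alone gave no call for any UBE2 gene, beside 0% of all genes tested. Without adjustment, 3 of the 30 UBE2 genes had a p under 0.05 by edgeR's quasi-likelihood test, and so did 703 of all 12685 genes tested. The 3 were UBE2D3 at 0.22, UBE2K at -0.25 and UBE2L3 at 0.23. The smallest adjusted p of a UBE2 gene was 0.6805. DESeq2 called no UBE2 gene either, and of all genes 1 higher and 18 lower. The groups did not overlap for 6 UBE2 genes, beside 8.01% of all genes. UBE2D3, for example, was at 243, 240, 259 and 251 CPM with ISRIB, all above its DMSO libraries.

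Nelfinavir on top of bortezomib was compared with bortezomib alone. Of the 30 UBE2 genes, 9 differed, 30% beside 28.9% of all genes tested. Of these, 6 were higher (20% beside 15.6%), among them UBE2D3, UBE2O, UBE2J1, UBE2F and UBE2H, and UBE2G1, UBE2D2 and UBE2K were lower (10% beside 13.4%). The groups did not overlap for 9 UBE2 genes, beside 21.5% of all genes. Without replicates 1 and 2 of the combination 8 UBE2 genes were lower, and without replicates 3 and 4 only UBE2G1 was, so that the number called lower rests on those libraries. The share of all genes called without them is not given here, so this shift cannot be read as particular to UBE2 genes.

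UBE2J1 gave the steepest rise in this comparison. It was at 38.9, 34.3, 27 and 39.5 CPM with bortezomib and at 74.4, 62, 72.7 and 65.5 CPM with the combination. Every combination library lay above every bortezomib library, and the log2 fold change was 0.97 ± 0.13 (adjusted p = 9.18e-07). It was 1.03 without replicates 1 and 2 and 0.98 without replicates 3 and 4. UBE2J1 thus differed from DMSO with nelfinavir and from bortezomib with the combination, while bortezomib alone gave 0.10.

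UBE2D3 and UBE2O, which had risen with bortezomib, were higher again with the combination. UBE2D3 was at 299, 319, 305 and 320 CPM with bortezomib and at 468, 444, 547 and 462 CPM with the combination. The log2 fold change was 0.63 ± 0.08 (adjusted p = 1.345e-07), and 0.75 and 0.56 without the first and the last pair of replicates. UBE2O was at 111, 159, 165 and 163 CPM with the combination, with replicate 1 well below the others but above every bortezomib library. It rose by 0.82 ± 0.11 (adjusted p = 3.457e-07), or by 1.01 and 0.68 without those pairs. UBE2F rose by 0.70 ± 0.13 (0.90 and 0.55 without them) and UBE2H by 0.42 ± 0.11 (0.48 and 0.41).

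UBE2G1, UBE2D2 and UBE2K, which had risen with bortezomib, were lower with nelfinavir added. Both comparisons hold the same 4 bortezomib libraries, with opposite sign, so the rise and the fall are not independent observations. UBE2G1 (chr17:4172554-4269970, minus strand) was at 69.7, 70, 82.4 and 84.1 CPM with bortezomib and at 55, 55.9, 36 and 43.7 CPM with the combination. All combination libraries were below all bortezomib libraries, and UBE2G1 changed by -0.69 ± 0.15 on the log2 scale (adjusted p = 0.0006523). UBE2D2 was at 215, 186, 181 and 174 CPM with the combination, below every bortezomib library, and fell by 0.36 (SE 0.08, adjusted p = 0.00145). UBE2K (chr4:39699729-39784412, plus strand) was at 200, 204, 184 and 200 CPM with bortezomib and at 170, 177, 136 and 139 CPM with the combination. It fell by 0.34 (SE 0.10, adjusted p = 0.007218) but lost the call without combination replicate 3 (0.05112) or 4 (0.05369). Without both of them UBE2D2 (0.06236) and UBE2K (0.2661) were not called, and UBE2G1 was at -0.46 (0.04656). UBE2T was at 23.7, 24.3, 7.27 and 10.7 CPM with the combination, low in replicates 3 and 4 alone, and UBE2W at 17.3, 18.2, 4.52 and 7.32 CPM showed the same division. The summed proliferation markers were at 1300 to 1510 CPM with the combination.

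ISRIB on top of bortezomib was likewise compared with bortezomib alone. Of the 30 UBE2 genes, 4 differed, 13.3% beside 12.2% of all genes tested, with 1 higher (3.33% beside 6.91%) and 3 lower (10% beside 5.34%). For 6 UBE2 genes the libraries did not overlap, beside 12.5% of all genes. UBE2E1 (chr3:23847446-23933131, plus strand) was at 58.6, 61.7, 71.6 and 74.1 CPM with bortezomib and at 45.2, 41.3, 46.3 and 35.1 CPM with bortezomib and ISRIB. The groups did not overlap, and the log2 fold change was -0.66 ± 0.11 (adjusted p = 4.155e-05), or -0.72 without replicate 3 of the combination. NKIRAS1, which overlaps the outermost annotated end of UBE2E1 on the opposite strand, was at 0.47 ± 0.24 (adjusted p = 0.2003) and at a mean of 11.4 CPM with the combination. UBE2D2 was at 181, 202, 156 and 210 CPM, below every bortezomib library, and fell by 0.37 (SE 0.08, adjusted p = 0.002614), or by 0.30 without replicate 3.

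The other calls of that comparison were weak. Without replicate 3 of bortezomib with ISRIB, 1 UBE2 gene was higher and 2 were lower, and the share of all genes called without it is not given here. UBE2K was at 176, 172, 155 and 141 CPM with bortezomib and ISRIB and fell by 0.29 (SE 0.10, adjusted p = 0.04207). It lost the call without bortezomib replicate 1 (0.06789), 2 (0.08744) or 4 (0.0705) and without combination replicate 3 (0.07254) or 4 (0.1268). UBE2J1 was at 49.4, 57, 40.4 and 41.2 CPM and rose by 0.43 ± 0.14 (adjusted p = 0.03213). Without replicate 3 of the combination it was at 0.49 (0.01817). It lost the call, which left no gene higher, without bortezomib replicate 2 (0.06733) or 3 (0.1415) and without combination replicate 1 (0.07735) or 2 (0.1506).

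**Figure D5:**
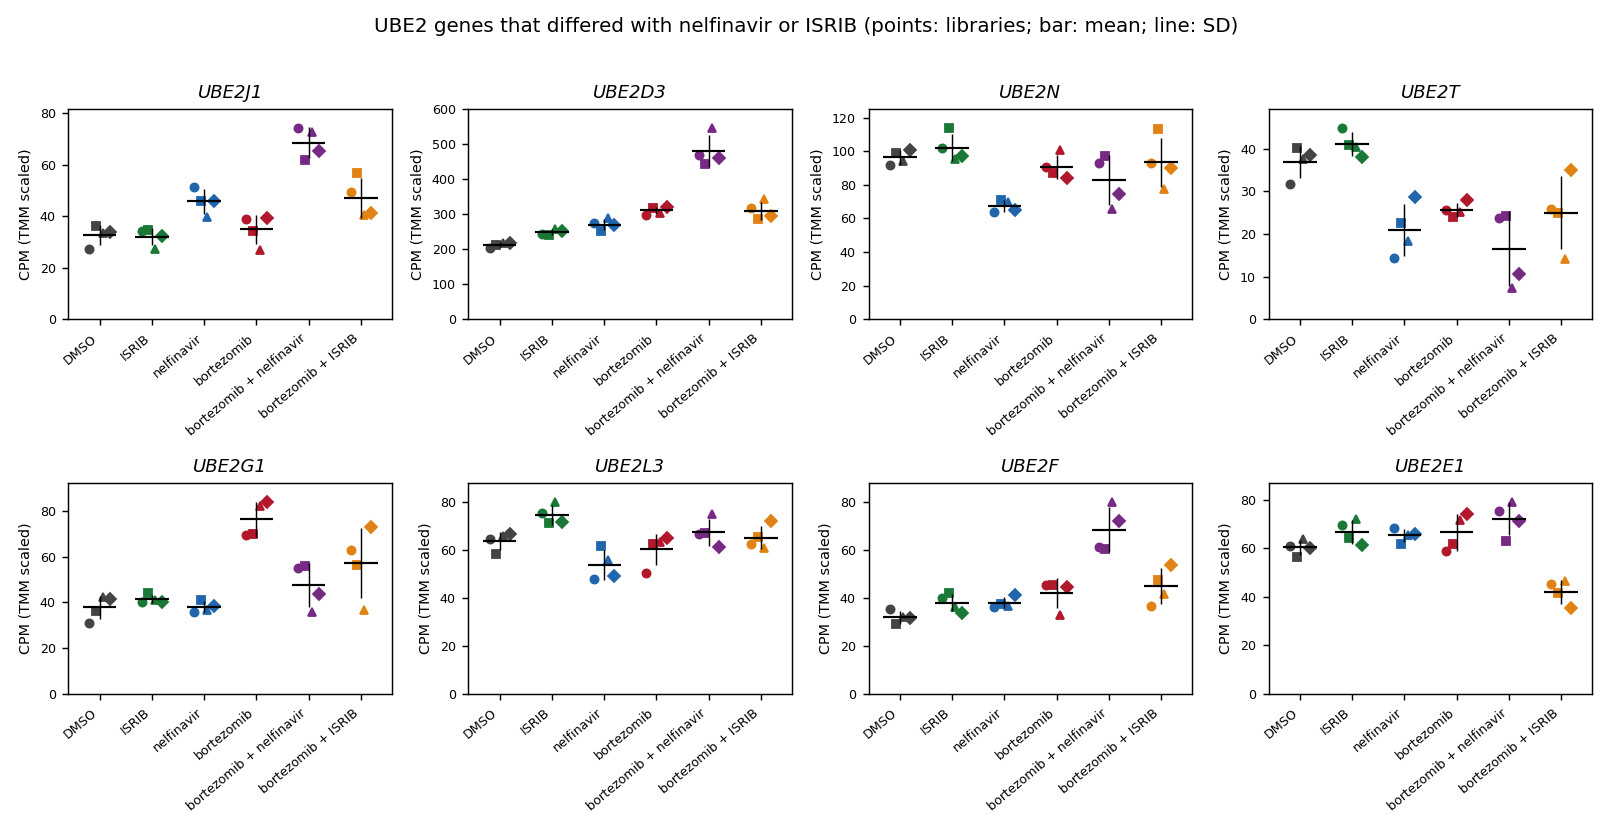
TMM-scaled CPM (linear axis from 0) of 8 UBE2 genes named for nelfinavir, for ISRIB or for an interaction, in the 4 libraries of all 6 groups (symbols mark replicates 1 to 4; bar, mean; line, SD). UBE2J1 is at 62 to 74.4 CPM with bortezomib and nelfinavir, above all other groups, UBE2E1 is at 35.1 to 46.3 CPM with bortezomib and ISRIB, below all others, and UBE2T divides within the group of bortezomib and nelfinavir.

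Whether nelfinavir acted differently with and without bortezomib was tested as an interaction, the log2 difference between the 2 nelfinavir effects. Of the UBE2 genes, 4 passed (13.3%, beside 19.7% of all genes tested), 2 in each direction (beside 9.74% positive and 10% negative). UBE2O did not differ detectably with nelfinavir alone (0.01 ± 0.11) but rose by 0.82 on top of bortezomib, and the interaction was 0.82 (adjusted p = 0.0001623), or 1.00 without replicates 1 and 2 of the combination and 0.68 without replicates 3 and 4. UBE2D2 was at 0.15 with nelfinavir alone, when it stood at 177, 172, 175 and 173 CPM, and fell on top of bortezomib, an interaction of -0.51 (adjusted p = 0.002006), or -0.55 and -0.41 without those pairs. UBE2G1 was at 35.8, 41.3, 36.7 and 38.3 CPM with nelfinavir alone, a difference of 0.01 from DMSO, and its interaction was -0.70 (adjusted p = 0.01667). That call was lost without combination replicate 3 (0.05422), which left 1 gene with a negative interaction, and without replicates 3 and 4 (0.1266), while without replicates 1 and 2 the interaction was -0.90.

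UBE2L3 had the weakest interaction, 0.41 (adjusted p = 0.04189). It was at 64.5, 58.3, 65.8 and 66.4 CPM in DMSO, 48, 61.6, 55.9 and 49.2 CPM with nelfinavir, 50.5, 62.3, 63.2 and 64.8 CPM with bortezomib, and 66.6, 66.8, 74.7 and 61 CPM with both. The call was lost when any of 7 single libraries was left out, namely DMSO replicate 1, 3 or 4, nelfinavir replicate 1 or 4, bortezomib replicate 1 and combination replicate 3, with adjusted p of 0.06556 to 0.09386. Without replicates 3 and 4 of the combination it was 0.06889, and without replicates 1 and 2 it was 0.03365. The number of positive interactions, 2, was itself unstable. It was 1 without DMSO replicate 4 or nelfinavir replicate 4, 4 without bortezomib replicate 1, 3 or 4 and 5 without bortezomib replicate 2, and 6, 7 and 5 without combination replicate 1, 2 and 4. The share of all genes with an interaction in these fits is not given here.

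For ISRIB, 2 UBE2 genes had an interaction (6.67%, beside 4.82% of all genes tested), both negative (beside 2.93% positive and 1.89% negative). UBE2E1 was at 69.5, 64.2, 72.2 and 61.3 CPM with ISRIB alone, a log2 difference of 0.15 from DMSO, and fell on top of bortezomib, an interaction of -0.81 (adjusted p = 0.0005559). UBE2D2 was at 166, 181, 172 and 170 CPM with ISRIB alone, and its interaction was -0.51 (adjusted p = 0.00751). Without replicate 3 of bortezomib with ISRIB these were -0.86 and -0.43. UBE2D2 was therefore the only member with both interactions called. Both combinations are set against the same 4 bortezomib libraries, so these are not independent observations.

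Start sites were examined for short motifs in 26 members that have a window of 250 bases before to 50 bases after a start in RefSeq (GRCh38.p14), 38 windows in all. The windows of 3 genes whose levels moved in different ways are shown. UBE2J1 was higher with nelfinavir against DMSO and with the nelfinavir combination against bortezomib. In its window (chr6:89352673-89352972, minus strand) the capitals mark a single stretch that matches TGACNNNGC, the core of the antioxidant response element. A match to TGACGTGG, a core of unfolded protein response elements, lies wholly inside this stretch, so the same letters count for both motifs. In UBE2T, lower with nelfinavir, the capitals mark TTTGAA, the cell cycle genes homology region, and 2 CCAAT boxes (chr1:202341887-202342186, minus strand). In UBE2D2, higher with bortezomib than DMSO and lower in both combinations than bortezomib alone, they mark a TGACNNNGC match and a CCAAT box (chr5:139561089-139561388, plus strand).
UBE2J1: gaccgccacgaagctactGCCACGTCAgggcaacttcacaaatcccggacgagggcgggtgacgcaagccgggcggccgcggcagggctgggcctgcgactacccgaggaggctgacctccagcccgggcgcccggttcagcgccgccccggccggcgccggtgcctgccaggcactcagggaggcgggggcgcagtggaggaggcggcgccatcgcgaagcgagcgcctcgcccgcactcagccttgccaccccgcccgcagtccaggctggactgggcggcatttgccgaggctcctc
UBE2T: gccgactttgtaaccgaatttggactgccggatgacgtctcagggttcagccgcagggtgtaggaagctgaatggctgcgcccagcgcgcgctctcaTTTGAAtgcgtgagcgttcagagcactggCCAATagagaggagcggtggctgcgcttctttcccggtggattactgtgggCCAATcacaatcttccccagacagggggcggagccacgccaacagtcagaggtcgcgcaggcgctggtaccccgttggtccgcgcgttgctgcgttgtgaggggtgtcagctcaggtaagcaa
UBE2D2: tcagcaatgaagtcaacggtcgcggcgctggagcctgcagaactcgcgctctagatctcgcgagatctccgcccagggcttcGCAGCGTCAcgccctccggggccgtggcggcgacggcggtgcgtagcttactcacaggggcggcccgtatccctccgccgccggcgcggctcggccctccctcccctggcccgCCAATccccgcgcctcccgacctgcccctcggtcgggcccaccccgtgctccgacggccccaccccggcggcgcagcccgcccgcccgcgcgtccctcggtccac

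All motifs were searched on both strands, and a match is a match of letters alone. TGACGTGG was found in 1 member, UBE2J1, and in 0.729% of the 35116 RefSeq windows. TGACNNNGC was found in 5 members (UBE2D2, UBE2E3, UBE2J1, UBE2K and UBE2Q2), or 13.2% of member windows against 13.3% of all. TTTGAA was found in 3 members (UBE2F, UBE2T and UBE2E1-AS1), 7.89% of member windows against 15.2% of all, and its second form TTTAAA in UBE2D3, UBE2F and UBE2K, 7.89% against 12.2%. CCAAT boxes were found in 8 members, 26.3% of member windows against 34.6% of all. No member window held the heat shock element or the C/EBP-ATF forms TGATGCAAT and TGATGAAAC, each of which is in under 0.5% of all windows. UBE2B, UBE2C, UBE2H, UBE2NL, UBE2Q1, UBE2Q2L, UBE2V2 and UBE2W were among those not examined.

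Other genes of the pathway were taken from lists. Of 10 E1 genes, 4 rose and 1 fell with bortezomib (median 0.07), which is 40% and 10% beside 27.6% and 25.8% of all genes. UBA1, the main ubiquitin E1, rose by 0.96 ± 0.12 and UBA6, which loads UBE2Z, by 0.75 ± 0.09, while NAE1, a subunit of the NEDD8 E1, fell by 0.43 (SE 0.12). Of 8 E2 or E2-like genes not named UBE2, 3 rose and 1 fell, 37.5% and 12.5%. CDC34, the close relative of UBE2R2, rose by 0.71 ± 0.12 with bortezomib and by 0.78 ± 0.12 with nelfinavir, where UBE2R2 was at 0.48 and 0.26.

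Of the 41 E3 partner genes listed, 38 were tested, and 17 rose and 7 fell with bortezomib (median 0.14), 44.7% and 18.4% beside the same 27.6% and 25.8%. RBCK1, a subunit of the linear chain ligase that works with UBE2L3, rose by 1.35 ± 0.09, and ARIH2, an RBR ligase, by 1.07 ± 0.07. MARCH6, an ER ligase that works with UBE2G2 and UBE2J2, rose by 1.17 ± 0.09. CDC20, which activates the APC/C served by UBE2C, fell by 1.25 (SE 0.12), and FANCL, the ligase served by UBE2T, fell by 1.26 (SE 0.19). The other APC/C genes listed did not move together. FZR1 rose by 0.675 ± 0.13, ANAPC11 fell by 0.57 (SE 0.09), and ANAPC2 was not called, at -0.11 ± 0.54. With nelfinavir 4 of the 38 rose and 6 fell, 10.5% and 15.8% beside 10.4% and 8.84% of all genes. RBCK1 rose by 0.82 ± 0.09 with nelfinavir and ARIH2 by 0.445 ± 0.074. SYVN1, the partner of UBE2J1, rose by 0.66 ± 0.13 with nelfinavir. It also rose by 0.515 ± 0.138 with bortezomib, where UBE2J1 was at 0.10 and not called. RAD18, the partner of UBE2A and UBE2B, fell by 1.11 (SE 0.24) with nelfinavir and was at 0.12, not called, with bortezomib.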

How the data were processed

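Total RNA of HepG2 cells was measured with 80 bp single reads of 3′ tag libraries. Per the labels and the study's methods, the authors trimmed reads with cutadapt 2.8, aligned them with STAR to hg19 and deposited raw counts per gene; the strand setting is not given in the sources used here. All 24 libraries were fitted together with edgeR 4.0.16 in R 4.3.3 (quasi-likelihood test, TMM factors, filterByExpr with at least 5 counts and 25 in total, 1 coefficient per group), with p-values adjusted by Benjamini-Hochberg over 12685 genes and a threshold of 0.05. SE is the log2 fold change divided by the root of F, and intervals are 1.96 SE to each side. Errors cover the 4 biological replicates of each group. Scripts were tested on simulated data. Bortezomib libraries hold more mitochondrial counts than DMSO libraries, and the direction of a change can depend on the scaling. The part of the mitochondrial counts in this was not tested.

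The members, lists and named genes were chosen with earlier results of these data known. Values by library are given for the 4 genes called in each direction with the smallest p for bortezomib, the 3 in each other comparison, and every gene with an interaction called; other genes are named only from the lists (up to 3 in each direction). Genes beyond this, named for overlap or for a library, were chosen after their values were seen. Positions come from GENCODE v44 lifted to GRCh37, which matched 34 of 35 members, near copies from BLAST 2.17.0 (at least 80 bases, 97% identity), and start windows from RefSeq. Results of 1 member are not reported here, though the counts over all members include it. Protein sequences were not analysed here; nucleotide identity of coding sequences was used in their place. Alternatives were RLE and upper-quartile factors, library totals alone, DESeq2 1.42.0, no filter, edgeR's own filter, only the groups compared, a replicate block and leaving out each library; leaving out pairs of libraries was added after seeing the data. No replicates agreed within sampling noise.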

Additional observations from a re-analysis of the deposited data

Results flagged for a closer look

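In groups of 4 libraries, 1 library stood apart from the other 3 by Dixon's test (the gap over the range) in 11 of 180 tests of a UBE2 gene in a group, and chance flags about 1 in 20. With ISRIB alone, UBE2E2 was at 0.757 CPM in replicate 1 and at 0 in the others, UBE2G2 at 79.4 CPM in replicate 2 against 93.3 to 95.2, UBE2M at 32.2 CPM in replicate 3 against 34.1 to 34.4, and UBE2R2 at 169 CPM in replicate 1 against 163 to 164. UBE2H was at 26.6 CPM in DMSO replicate 2 against 33.8 to 34.7. With nelfinavir alone, UBE2O was at 46.3 CPM in replicate 3 against 49 to 49.5, and UBE2V2 at 63 CPM in replicate 4 against 73.7 to 75.8. UBE2F was at 33 CPM in bortezomib replicate 3 against 44.5 to 45.6, the library that made its groups overlap. UBE2O was at 111 CPM in replicate 1 of bortezomib with nelfinavir against 159 to 165. In replicate 3 of bortezomib with ISRIB, UBE2H was at 69.9 CPM against 89.4 to 90 and UBE2W at 11.2 CPM against 14.9 to 15.5, in the library that also stood apart over all genes.

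Among the UBE2 genes, 6 effects of nelfinavir or ISRIB differed between cells with and without bortezomib by a test of the interaction itself. For nelfinavir these log2 differences were 0.815 for UBE2O, -0.51 for UBE2D2, -0.696 for UBE2G1 and 0.408 for UBE2L3. For ISRIB they were -0.81 for UBE2E1 and -0.507 for UBE2D2.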

How the results depend on the processing

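Over 48 called values of UBE2 genes, RLE factors, DESeq2, edgeR's own filter and the replicate block kept every call and direction. Upper-quartile factors lost 2, the fit of only the groups compared 3, no filter 4, and leaving out 1 library 27 of 432, in 8 of the 48. With library totals alone 9 were lost and 3 turned, UBE2R2 at -0.017, UBE2J2 at -0.001 and UBE2F at -0.102 for bortezomib against DMSO, by the construction of that scaling.

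With library totals alone the UBE2 genes called for bortezomib against DMSO were 7 higher and 12 lower, and those for ISRIB on top of bortezomib 0 higher and 5 lower. Of all genes, 11.7% were higher and 49.4% lower in the former comparison, and 5.12% and 7.53% in the latter. The log2 ratio of the summed level for bortezomib against DMSO was -0.083 with library totals, 0.376 with RLE and 0.332 with upper-quartile factors. With library totals it was 0.059 for ISRIB alone and -0.154 for ISRIB on top of bortezomib, and with upper-quartile factors 0.111 for nelfinavir on top of bortezomib. In the fit of only the groups compared, 5 UBE2 genes were lower with nelfinavir, beside 1948 of all 12075 genes tested. With ISRIB on top of bortezomib 0 were higher, beside 510 of 11317. A positive nelfinavir interaction was called for 5, beside 1320 of 12376. That last count, 2 in the report, was 1 with upper-quartile factors, 6 with DESeq2, and 5 with the replicate block, which added UBE2D3, UBE2J1 and UBE2Z. Of all 12685 genes, 1174, 1477 and 1291 had a positive interaction in these fits, and 1236 in the main fit. The labels do not say that a replicate number marks a shared batch; 10 of 60 same-number pairs of libraries and 7 of 180 other pairs had deviations correlated above 0.1, and 14 of 24 libraries correlated best with their own number, a hint of pairing from the data. The block changed no other count by more than 1.5 times.

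Leaving out 1 library gave 5 to 8 genes lower with bortezomib, 0 to 1 higher with ISRIB on top of bortezomib, and 1 to 7 positive and 1 to 2 negative nelfinavir interactions. Without replicates 1 and 2 of bortezomib with nelfinavir, 8 were lower than with bortezomib, and 7 interactions were positive and 4 negative. Without replicates 3 and 4, 1 was lower. The share of all genes called with libraries left out is not given here, so these changes cannot be read as particular to UBE2 genes. Their cause was not tested. UBE2S, UBE2V1 and UBE2E2 were too shallow to compare, and intervals reflect 4 libraries a group and a spread shared by all groups.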
